A study of Homo sapiens with 6 samples.

Results

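The genes of the mitochondrial protein import machinery were followed in RNA that was precipitated through a myc tag from HEK cells, an established human line of embryonic kidney origin. A list of 36 genes was used, chosen by name for their place in the translocases of the outer membrane (TOM) and inner membrane (TIM), the sorting and assembly machinery (SAM), the presequence-associated motor (PAM), the intermembrane space relay (MIA) and the matrix processing peptidase. All 36 were found among the 60671 gene IDs of the count table, and all 36 passed the filter on low counts. The labels give 6 libraries. In 3 replicates of a wild-type control (WT.Control, treatment given as untreated), the RNA is labelled as bound to SYNJ2BP, an outer mitochondrial membrane protein. The other 3 replicates are of a SYNJ2BP AAA mutant (AAA.mito). All cells were transfected with calcium phosphate, and ribosomal RNA was depleted after the precipitation. No source used here gives the residues changed in the mutant, the construct carried by the control cells or the meaning of the term mito, which stands in the mutant names alone. The series concerns transport of PINK1 mRNA with neuronal mitochondria through SYNJ2, a lipid phosphatase that SYNJ2BP binds. The comparison addressed here is how much RNA of each import gene was recovered with the mutant and with the control.

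Most mitochondrial proteins are made in the cytosol and carried across the outer membrane by the TOM complex, whose receptors hand precursors to the TOMM40 pore. From there SAM inserts barrel proteins into the outer membrane, small TIM chaperones and the MIA oxidation relay serve the intermembrane space, TIM22 inserts carriers into the inner membrane, and TIM23 with the PAM motor passes presequence proteins into the matrix, where the peptidase made of PMPCA and PMPCB removes the presequence. PINK1 is itself a client of this route: it is imported and degraded in healthy mitochondria and held at the TOM complex when import stalls. Messenger RNAs of many mitochondrial proteins are translated close to the outer membrane, where SYNJ2BP is anchored.

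Total counts ranged from 3287218 in mutant replicate 2 to 73331652 in mutant replicate 3. The density of counts over 270 olfactory receptor genes, a family taken here as silent in these cells, served as a measure of background. Scaled to all nuclear genes, that background made up 6.35% to 6.93% of counts in the replicate 3 libraries, 37.0% and 53.4% in control and mutant replicate 1, and 85.2% and 82.6% in control and mutant replicate 2. Libraries of replicate 2 therefore stand apart, and the values of called members are given with and without them. HEK markers NEFL and NEFM were at 51.9 to 98.3 times background in the replicate 3 libraries, LIN28B and CDH2 at 15.1 to 26.8 times, and PAX2 at 3.10 and 4.50 times. Markers of other cell types lay near background there, with PTPRC, CD3E, ALB and MYH7 between 0.565 and 1.25 times. RNA of SYNJ2BP itself averaged 36.9 ± 28.0 CPM (counts scaled to the effective library size) over the control libraries, against 39.7 ± 34.6 CPM over those of the mutant (SD, n = 3).

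Most import machinery RNAs had lower values with the mutant, but 3 of the 36 passed a test, and those only when libraries with the same replicate number were treated as pairs. These were TOMM40L, a second form of the TOM pore, GFER, the oxidase of the MIA relay, and PMPCA, a subunit of the processing peptidase. With pairs, edgeR's quasi-likelihood test called 3 of 36 members lower and 0 higher at an adjusted p under 0.05, against 1.4% of all 33375 tested genes called lower and 0.00599% called higher. Of the 4818 tested genes that lay on average more than 8 times above background, 7.97% were called lower, and the 3 called members are among the 26 members above that level. These shares are near enough that the count does not set the members apart. Without pairs edgeR called 0 members (0% of tested genes called). At an unadjusted p under 0.05, 0 members and 23 of all genes (0.0689%) were then lower. DESeq2 and limma-voom likewise called 0 genes, with 58 and 2 genes lower at an unadjusted p under 0.05, 1 and 0 of them members. With pairs, 14 of 36 members were lower at an unadjusted p under 0.05, against 9.17% of tested genes. Far above background these were 13 of the 26 members and 1884 of all 4818 genes, and 1 of the other 10 members was lower. No test was made between these sets. Input RNA was not analysed here, so a lower amount of an RNA in the cells, fewer cells that hold it and a lower recovery in the precipitation cannot be told apart.

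The median log2 fold change of the members, mutant minus control, was −0.45 with pairs and −0.58 without. Over all tested genes these medians were −0.08 and −0.03, and over genes far above background −0.50 and −0.59. The 26 members far above background had medians of −0.55 with pairs and −0.77 without, and the other 10 members −0.22 and −0.28. Members far above background were thus close to other such RNAs with pairs, and lower than them without pairs. With pairs, 33 of 36 members lay below 0, 25 of them among the 26 far above background. The same held for 4218 of the 4818 genes far above background and for 19633 of all tested genes. In pair 1, 32 of 36 members were lower in the mutant, in pair 3 34 of 36, and in pair 2 15 of 36, with median pair differences of −0.49, −0.76 and 0.11. Such a difference subtracts log2 CPM of the control from that of the mutant within a replicate number. In all 3 pairs 14 members were lower, 12 of them among the 26 far above background. The share was 18.2% of all tested genes and 38.6% of genes far above background. For 0 of 36 members did all mutant libraries lie below all control libraries in CPM, which held for 0.446% of tested genes. Scaling factors taken from the genes far above background ended all 3 calls, with TOMM40L at −1.34 ± 0.40, GFER at −1.04 ± 0.42 and PMPCA at −0.79 ± 0.36 (SE; adjusted p from 0.592 to 0.702), and moved the members' median to 0.03 with pairs, where 15 of 36 lay below 0 and the median of all genes was 0.37. Without pairs, leaving out control replicate 3 moved the median to 0.69, with 6 of 36 below 0, and leaving out mutant replicate 3 moved it to −1.48, with 36 of 36 below 0. With both left out in the fit with pairs, the median was −0.30, with 27 of 36 below 0.

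**Figure D1:**
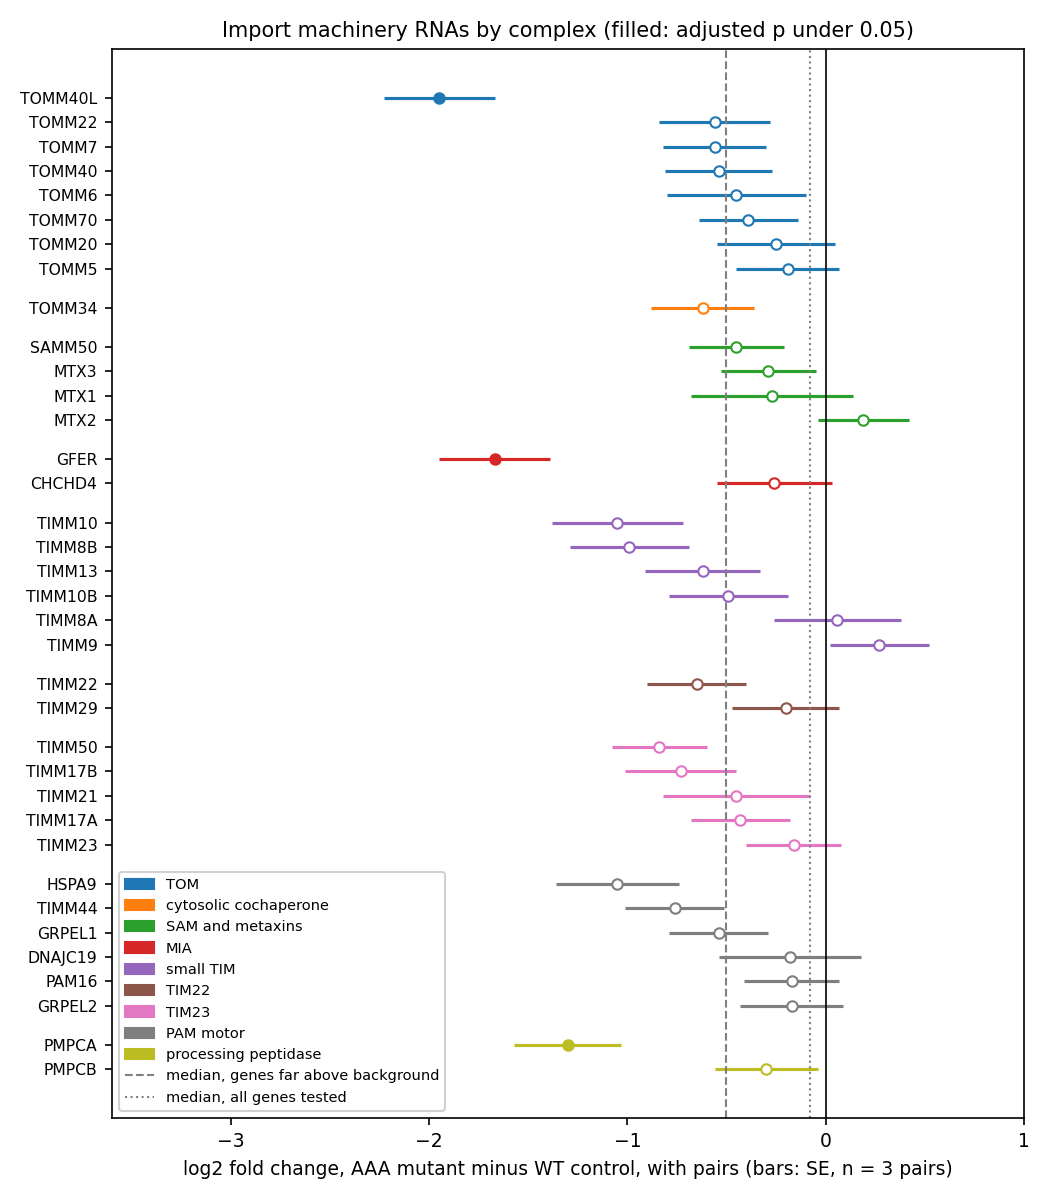
Log2 fold changes of the 36 import genes in the fit with pairs (x axis, mutant minus control, bars are standard errors over 3 pairs), ordered within each complex. The filled points TOMM40L (−1.95), GFER (−1.67) and PMPCA (−1.30) passed the test, and most open points lie around the dashed median of genes far above background (−0.50).

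TOMM40 forms the channel through which nearly all precursors enter, and TOMM40L is a second gene for a channel protein of the same family. Their counts can be told apart: the coding sequences are 69.6% identical over 923 aligned bases, and the longest run of bases they share is 14. The first 90 coding bases of each, from GENCODE release 29 with the start codon in capitals, show how far the pair has diverged.
TOMM40L: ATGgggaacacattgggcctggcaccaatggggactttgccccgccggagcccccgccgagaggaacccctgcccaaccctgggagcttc
TOMM40: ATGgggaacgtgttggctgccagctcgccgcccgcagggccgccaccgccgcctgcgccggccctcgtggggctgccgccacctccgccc

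TOMM40L (ENSG00000158882, GRCh38 chromosome 1, 161225939 to 161230744) had 41.9, 4.29 and 65.3 CPM in control replicates 1, 2 and 3, and 10.0, 2.31 and 13.8 CPM in mutant replicates 1, 2 and 3. Each mutant library was below its paired control, while the groups overlapped because control replicate 2 lay under mutant replicates 1 and 3. The log2 fold change was −1.95 ± 0.28 (SE, n = 3 pairs, edgeR adjusted p = 7.5e-05), which is 3.86-fold lower, and −2.08 ± 1.00 without pairs (adjusted p = 1). TOMM40L was called without pair 1 (−1.85 ± 0.38, adjusted p = 0.00229) and without pair 2 (−1.99 ± 0.33, adjusted p = 2.54e-06). Without pair 3 the value was −1.68 ± 0.40 (adjusted p = 0.347). Its 10 counts in mutant replicate 2 lay at 1.55 times background. NR1I3, a nuclear receptor gene on the opposite strand, shares 661 exon bases with TOMM40L, which is 20.1% of the exon length of TOMM40L. NR1I3 was lower too, with a log2 fold change of −1.45 ± 0.31 (edgeR adjusted p = 0.00913 with pairs). It had 330, 62 and 1242 counts in the control and 54, 18 and 460 in the mutant. As CPM it was not lower in pair 2, at 4.15 in the control and 4.16 in the mutant. Whether the counting used strand is not given, so the share of reads that belongs to each of these overlapping genes was not tested.

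TOMM40 (ENSG00000130204, chromosome 19, 44890569 to 44903689) did not pass, with −0.54 ± 0.27 with pairs (adjusted p = 0.501). It had 77.7, 6.16 and 86.7 CPM in the control and 39.4, 8.54 and 49.5 CPM in the mutant, higher in the mutant in pair 2. The ratio of TOMM40L to TOMM40 counts within a library does not depend on scaling. That ratio was 0.539, 0.696 and 0.752 in control replicates 1, 2 and 3, and 0.254, 0.270 and 0.278 in the mutant. All mutant ratios lay below all control ratios, and the mutant ratio was 0.472, 0.389 and 0.370 times that of the paired control. In control and mutant replicate 2, TOMM40 was at 1.46 and 2.09 times background and TOMM40L at 2.77 and 1.55. The replicate 2 ratios are therefore in part ratios of background counts. TOMM40L was set beside TOMM40 after its call was known, so the ratio is a description and was not tested.

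TOMM20, TOMM22 and TOMM70 are the receptors that recognize precursors on the cytosolic side. TOMM20, which binds presequences, had 114, 26.5 and 345 CPM in the control and 84.5, 30.0 and 251 CPM in the mutant and the highest CPM among members in control replicate 3 and in all 3 mutant libraries. Its log2 fold change with pairs was −0.25 ± 0.30. TOMM22, the central organizer of the complex, had −0.56 ± 0.28, and TOMM70, the receptor for carrier precursors and their chaperones, −0.39 ± 0.25. None of the 3 receptors passed the test (adjusted p from 0.530 to 0.946). TOMM5, TOMM6 and TOMM7 are small subunits that steady the pore. Their values were −0.19 ± 0.26, −0.45 ± 0.35 and −0.56 ± 0.26, and none passed. TOMM5, the highest of the TOM set, had 17.6, 5.90 and 82.4 CPM in the control and 15.3, 9.24 and 49.2 CPM in the mutant (adjusted p = 0.959). On the same strand, ENSG00000255872 shares 14.3% of the exon bases of TOMM5 and ENSG00000256966 shares 9.33%, so TOMM5 values are uncertain. TOMM6 had 10 counts in control replicate 2 and 16 in mutant replicate 2, and its pair differences ran from −1.34 to 2.39. All of its annotated exon bases (100%) also lie in the exons of ENSG00000124593, so its counts are uncertain. TOMM34, a cytosolic cochaperone that keeps precursors unfolded, had −0.62 ± 0.26 (adjusted p = 0.318).

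**Figure D2:**
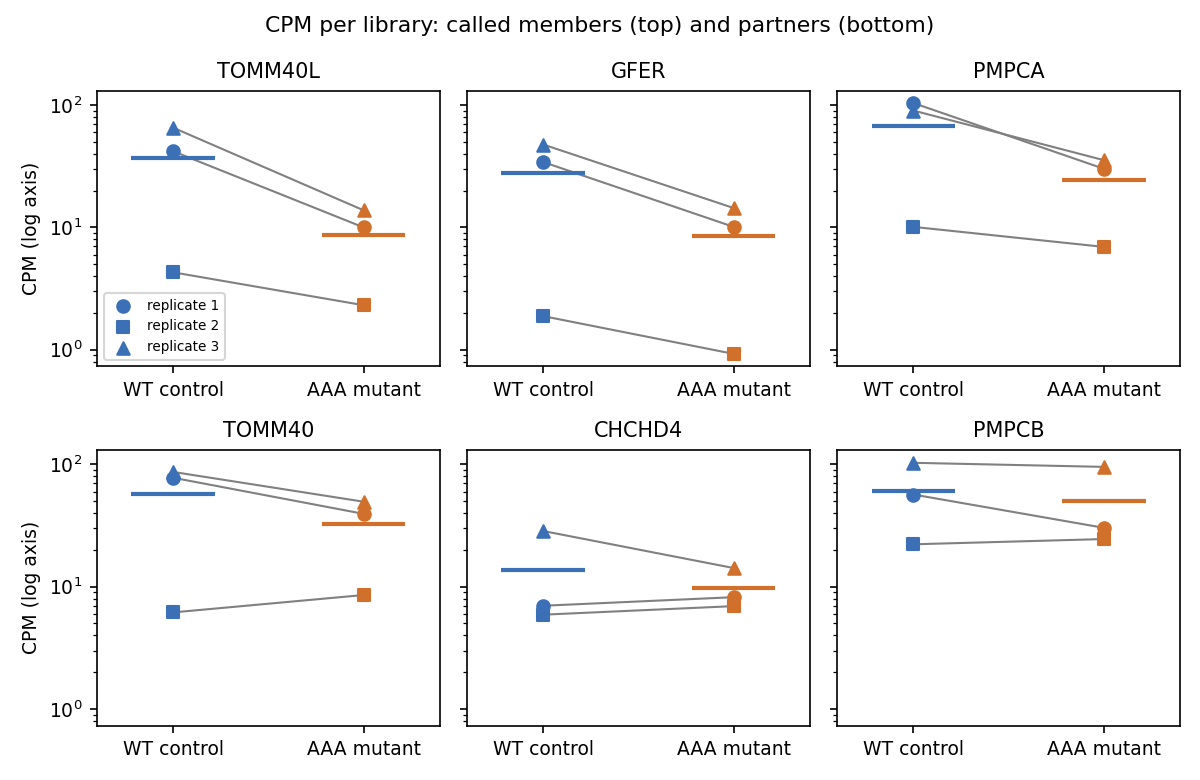
CPM (log axis) of the 3 called members in the top row and of a partner of each in the bottom row, with lines joining libraries of the same replicate number and bars at group means (n = 3). In the top row every line descends; in the bottom row the mutant lies above the control for TOMM40 and PMPCB in replicate 2 and for CHCHD4 in replicates 1 and 2.

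CHCHD4 and GFER make up the MIA relay. CHCHD4 oxidizes cysteine-rich precursors and so traps them in the intermembrane space, and GFER, also called ALR, takes the electrons from CHCHD4. GFER (ENSG00000127554, chromosome 16, 1984207 to 1987749) had 34.2, 1.88 and 47.6 CPM in the control and 10.1, 0.924 and 14.4 CPM in the mutant. The pairs gave −1.75, −0.99 and −1.72, so the mutant was lower in each, and the groups overlapped only through control replicate 2. The log2 fold change was −1.67 ± 0.28 (SE, n = 3 pairs; edgeR adjusted p = 0.000577), which is 3.18-fold lower, and −1.70 ± 1.15 without pairs (adjusted p = 1). GFER had 28 and 4 counts in control and mutant replicate 2, at 1.64 and 0.839 times background, so its pair 2 difference rests on values near background. Its call held without pair 2 (−1.57 ± 0.31, adjusted p = 0.000265). Without pair 1 the value was −1.56 ± 0.40 (adjusted p = 0.0728) and without pair 3 it was −1.60 ± 0.40 (adjusted p = 0.403), neither called. The antisense noncoding gene ENSG00000261790 shares 25.9% of the exon bases of GFER and was lower as well (−1.57 ± 0.31, edgeR adjusted p = 0.00473). It had 348, 32 and 1611 counts in the control and 56, 10 and 588 in the mutant. As CPM it was not lower in pair 2, at 2.14 in the control and 2.31 in the mutant. Part of the value of either gene may be shared reads.

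CHCHD4 did not pass, at −0.26 ± 0.29 (adjusted p = 0.939). It had 6.98, 5.90 and 28.5 CPM in the control and 8.20, 6.93 and 14.2 CPM in the mutant, lower only in replicate 3. For each CHCHD4 count there were 4.90, 0.318 and 1.67 GFER counts in the control and 1.24, 0.133 and 1.01 in the mutant. Within each pair the mutant ratio was the lower, at 0.252, 0.419 and 0.607 times the control, but the groups overlapped.

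Small TIM proteins are paired into hexamers that escort hydrophobic precursors across the intermembrane space; TIMM9 works with TIMM10, and TIMM8A with TIMM13. TIMM9 and TIMM10 lay at opposite ends of the set. TIMM10 had the lowest value of the 6 small TIM genes, −1.05 ± 0.33 with pairs (adjusted p = 0.118), with 7.05, 1.21 and 31.4 CPM in the control and 2.51, 1.39 and 14.6 CPM in the mutant. TIMM9 had the highest of all 36 members, 0.27 ± 0.25 (adjusted p = 0.892), with 9.72, 6.70 and 36.7 CPM against 11.8, 11.5 and 33.7 CPM. TIMM9 shares exon bases with the antisense ENSG00000258378, with KIAA0586 and with TOMM20L, none of which passed. TIMM13 had −0.62 ± 0.29, and TIMM8A, the gene affected in a deafness and dystonia syndrome, 0.06 ± 0.32. TIMM13 shares 13% of its exon bases with LMNB2 on the same strand and 15.9% with TMPRSS9 on the opposite strand. Values of TIMM13 are therefore uncertain. TIMM8B had −0.99 ± 0.30 (adjusted p = 0.103), with 55 and 2 counts in control and mutant replicate 2. NKAPD1, on the opposite strand, shares 30.1% of the exon bases of TIMM8B, so TIMM8B values are uncertain. TIMM10B, which binds at the TIM22 complex, had −0.49 ± 0.30. No small TIM gene passed.

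TIMM22 is the channel that inserts carriers into the inner membrane and TIMM29 a further subunit of that complex. TIMM22 had 16.9, 5.03 and 50.1 CPM in the control and 12.1, 3.69 and 26.9 CPM in the mutant, lower in every pair, with −0.65 ± 0.25 (adjusted p = 0.267). In control and mutant replicate 2 TIMM22 was at 2.38 and 1.81 times background. TIMM29 had 21.5, 4.42 and 24.1 CPM against 23.1, 5.77 and 13.3 CPM, lower in pair 3 alone, with −0.20 ± 0.27 (adjusted p = 0.955).

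The TIM23 translocase draws presequence proteins across the inner membrane. TIMM50, its receptor facing the intermembrane space, came nearest to a call, at −0.84 ± 0.24 (adjusted p = 0.0714). Its 51.8, 8.04 and 63.4 CPM in the control stood against 28.7, 5.08 and 33.0 CPM in the mutant, lower in all 3 pairs (−0.85, −0.66 and −0.94). The pair 2 difference of TIMM50 rests on 120 and 22 counts in control and mutant, at 1.87 and 1.22 times background. The channel subunit TIMM23 was at the other end of the complex, at −0.16 ± 0.24 (adjusted p = 0.966), with 20.8, 12.3 and 68.4 CPM against 18.0, 12.7 and 56.7 CPM. TIMM17A and TIMM17B, alternative forms of its partner subunit, had −0.43 ± 0.25 and −0.73 ± 0.28. TIMM21, which links TIM23 to the TOM complex, had −0.45 ± 0.37 and was at 0 counts in mutant replicate 2.

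TIMM23 has a near-identical copy, TIMM23B, and the values of these genes are uncertain because reads may fit either. Their coding sequences are 94.3% identical over 564 aligned bases, and their transcripts share a run of 144 bases. The first 90 coding bases are printed with capitals at the 3 positions where they differ, to show how little sequence sets the copies apart.
TIMM23: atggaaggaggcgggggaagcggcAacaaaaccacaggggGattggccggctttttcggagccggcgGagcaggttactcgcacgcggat
TIMM23B: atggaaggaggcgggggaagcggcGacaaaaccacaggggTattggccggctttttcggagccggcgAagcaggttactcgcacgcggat
TIMM23 had 289, 184 and 2838 counts in the control and 158, 55 and 3052 in the mutant; TIMM23B had 247, 182 and 1773 against 110, 38 and 2867. TIMM23B had a log2 fold change of −0.18 ± 0.25 with pairs, close to that of TIMM23, and did not pass either.

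The PAM motor pulls the chain into the matrix with HSPA9, the mitochondrial Hsp70. HSPA9 had 217, 39.8 and 225 CPM in the control and 58.4, 23.6 and 161 CPM in the mutant. All 3 pairs were lower, by unequal amounts (−1.90, −0.76 and −0.49), and the log2 fold change of −1.05 ± 0.31 missed the threshold (adjusted p = 0.0859). TIMM44, which holds HSPA9 at the channel, had −0.76 ± 0.25 (adjusted p = 0.155) and was also lower in all 3 pairs. In control and mutant replicate 2 TIMM44 was at 2.09 and 1.64 times background. GRPEL1 and GRPEL2 exchange nucleotides on HSPA9. GRPEL1 had −0.54 ± 0.25 and GRPEL2 −0.17 ± 0.26, neither passing. Counts of GRPEL2 and of its antisense gene GRPEL2-AS1 were close to each other in each library, at 3246 and 3063 in control replicate 3, so GRPEL2 values are uncertain. PAM16 and DNAJC19, the inhibitory and stimulating J proteins of the motor, had −0.17 ± 0.24 and −0.18 ± 0.36. PAM16 had 29.6, 9.31 and 54.2 CPM in the control and 21.5, 11.5 and 45.0 CPM in the mutant (adjusted p = 0.960), and lies in the readthrough gene CORO7-PAM16.

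PMPCA and PMPCB form the peptidase that cuts presequences off, PMPCB carrying the active site and PMPCA binding the substrate. PMPCA (ENSG00000165688, chromosome 9, 136410570 to 136423761) had 104, 10.1 and 90.3 CPM in the control and 30.2, 6.93 and 35.5 CPM in the mutant, lower in all pairs (−1.78, −0.53 and −1.35). Mutant replicates 1 and 3 lay below control replicates 1 and 3 and above control replicate 2. In control and mutant replicate 2 PMPCA was at 2.37 and 1.69 times background. The log2 fold change was −1.30 ± 0.27 (SE, n = 3 pairs, edgeR adjusted p = 0.00613), which is 2.46-fold lower, and −1.49 ± 0.94 without pairs (adjusted p = 1). PMPCA passed with all 3 pairs and in none of the fits that left out a pair. Its value was −1.06 ± 0.36 without pair 1 (adjusted p = 0.521), −1.39 ± 0.41 without pair 2 (adjusted p = 0.0783) and −1.27 ± 0.35 without pair 3 (adjusted p = 0.514). ENTR1, on the opposite strand, shares 0.607% of the exon bases of PMPCA. How overlapping genes were counted is not given, so the share of reads that belongs to each was not tested.

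PMPCB had 56.7, 22.2 and 103 CPM in the control and 30.3, 24.5 and 95.4 CPM in the mutant, and −0.30 ± 0.26 (adjusted p = 0.868). DNAJC2, on the opposite strand, shares 13% of the exon bases of PMPCB, so some PMPCB counts may be shared reads. The ratio of PMPCA to PMPCB counts was 1.83, 0.452 and 0.874 in the control and 0.996, 0.283 and 0.372 in the mutant. In each pair the mutant ratio was lower, at 0.544, 0.626 and 0.426 times the control, with overlap between the groups. Neither this ratio nor that of GFER to CHCHD4 was tested, because the partner was chosen with the call in view. Both ratios also include background counts in replicate 2.

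SAMM50 is the core of the sorting and assembly machinery and the metaxins MTX1, MTX2 and MTX3 accompany it. The median log2 fold change of these 4 genes was −0.28 with pairs, against −0.36 for the 6 PAM genes and −0.50 for the 8 TOM genes. With factors from genes far above background it was 0.23, against 0.13 and 0.03. SAMM50 had 42.5, 23.6 and 60.7 CPM in the control and 33.8, 14.3 and 47.7 CPM in the mutant, lower in each pair, with −0.45 ± 0.24 (adjusted p = 0.558). MTX2 had 22.3, 19.8 and 68.1 CPM against 26.2, 21.5 and 79.4 CPM, higher in each pair, with 0.19 ± 0.23 (adjusted p = 0.948). MTX2 lay at 1.6 and 1.71 times background in control and mutant replicate 1 and at 0.894 and 1.01 in replicate 2. SAMM50 lay at 1.33 and 0.836 times background in control and mutant replicate 2. The differences in those pairs therefore rest on values near background. MTX1 had −0.27 ± 0.41, with a pair 2 difference of 2.27 from 28 and 40 counts, and MTX3 had −0.29 ± 0.24.

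Members can also be divided by whether their protein is made with a presequence that is later cut off, which can bring the ribosome and its mRNA to the TOM complex during synthesis. That holds for PMPCA, PMPCB, HSPA9, GRPEL1, GRPEL2, TIMM44, TIMM50 and TIMM21. These 8 had a median log2 fold change of −0.65 with pairs, from −1.30 to −0.17, with 1 called lower and 6 lower in all 3 pairs. The other 28 had a median of −0.44, from −1.95 to 0.27, with 2 called lower and 8 lower in all 3 pairs. Among genes far above background, which include 7 of these 8 presequence genes and 19 of the other 28, 7.97% were called lower, 38.6% were lower in all 3 pairs and the median was −0.50. TOMM40L and GFER, with the lowest values of all members, were outside the presequence genes, and no test was made between these sets.

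Summed over all 36 members, the control libraries held 1240, 314 and 2570 CPM and the mutant libraries 680, 311 and 1670 CPM. The mutant to control ratio was 0.547, 0.992 and 0.648 in pairs 1, 2 and 3. By complex, the ratio of group means was lowest for MIA (0.438) and the peptidase (0.577) and highest for SAM and metaxins (0.898), with TOM, TIM23, the small TIM genes and the PAM motor between 0.610 and 0.647. In pair 2 the ratios of MIA, the peptidase and SAM and metaxins were 1.01, 0.972 and 0.974. Far above background were 2 of the 4 SAM and metaxin genes, and no test was made between complexes. When the sums were instead taken as CPM over the counts of genes far above background, the same 36 members had 2860, 3190 and 3710 in the control and 2750, 2520 and 3820 in the mutant. The ratio of means over all members was then 0.931, with MIA at 0.717 and SAM and metaxins at 1.09. On this scale the group means of 3250 ± 430 and 3030 ± 694 (SD, n = 3) differed by less than either SD.

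**Figure D3:**
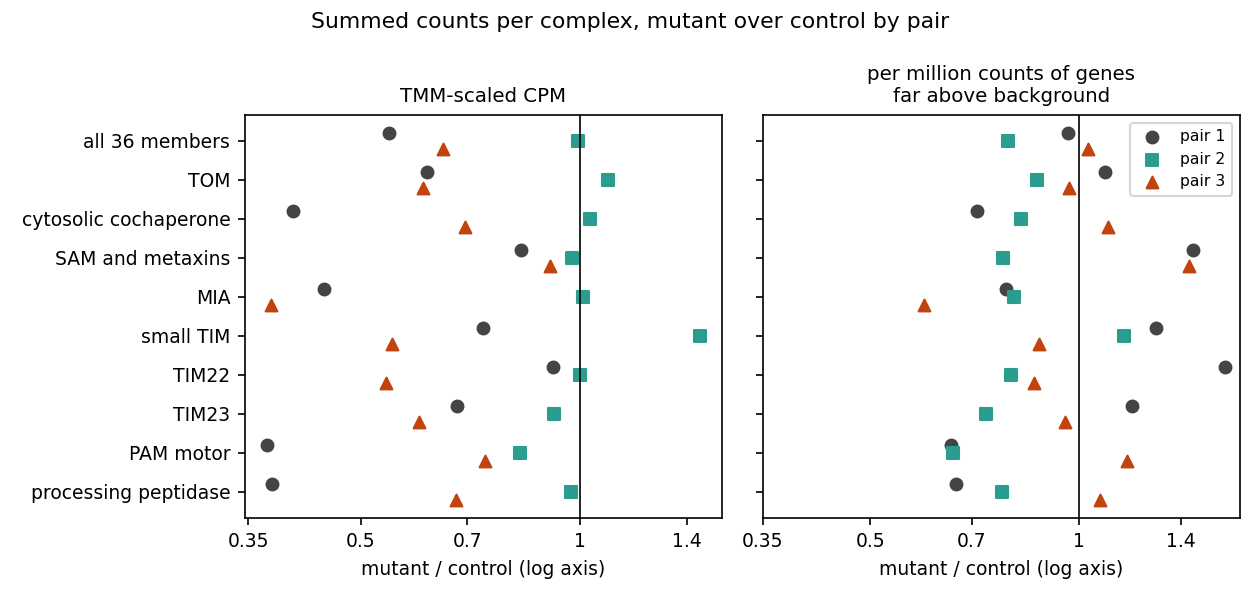
Mutant over control ratio (log axis) of summed counts for all 36 members and for each set, 1 marker per pair. With TMM-scaled CPM (left) pairs 1 and 3 lie below 1 for every set; as CPM over genes far above background (right) the ratios scatter on both sides of 1, apart from MIA, where all 3 lie below it.

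How far member RNAs stood above background differed more between replicate numbers than between groups. In control replicate 3 the members lay at 19.2 (MTX2) to 757 (TIMM13) times background, with a median of 118, and in mutant replicate 3 at 19.2 (SAMM50) to 361 (TIMM13), with a median of 66.7. Medians were 10.9 and 5.53 in control and mutant replicate 1. In control and mutant replicate 2 they were 1.85 and 1.91, and 21 of the 36 members were under 2 times background in each of these libraries. Import RNAs thus lay close to background in replicate 2. The 26 members far above background on average had a median log2 fold change of −0.55 with pairs, and the other 10 had −0.22, with 0 called. In the control, the mean level per kb of exon was highest for TOMM20 (45.7 CPM per kb), TOMM6 (42.6) and TIMM23 (27.7) and lowest for DNAJC19 (1.95) and TIMM21 (1.57). Neighbours in this order did not differ beyond the spread over libraries: TOMM20 had an SD of 46.5 CPM per kb. Per kb of whole gene span TOMM20 ranked 5 among the 36 members, TOMM6 ranked 3, TIMM23 ranked 31 and TIMM13 ranked 1. The place of TIMM23 in this order thus depends on the length used, and that of TIMM13 is uncertain because of its overlaps.

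**Figure D4:**
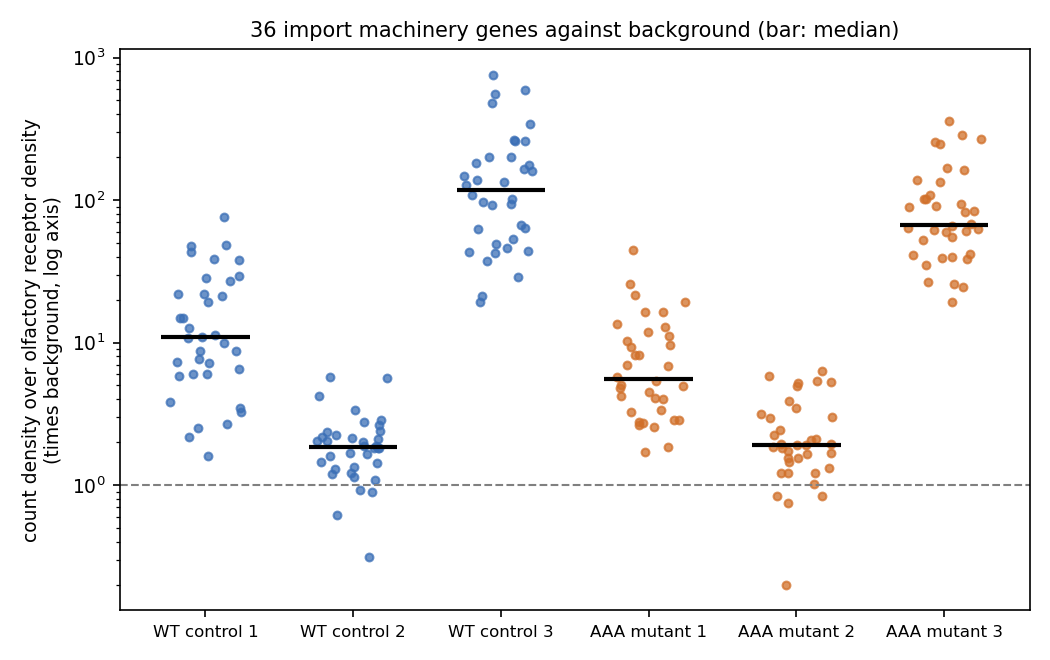
Count density of each of the 36 members over that of olfactory receptor genes (log axis) in each library, with a bar at the median; the point at 0 (TIMM21 in mutant replicate 2) is drawn at the lower edge. Medians are 118 and 66.7 in the replicate 3 libraries and 1.85 and 1.91 in the replicate 2 libraries, close to the dashed line at background.

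A list of 23 further genes of the import pathway, none of them a member, had a median log2 fold change of −0.37 with pairs, and 3 of 23 were called lower and 0 higher, against 1.4% of tested genes called lower and 7.97% of those far above background. PITRM1, the protease that degrades cleaved presequences in the matrix, fell by 1.16 ± 0.25 on the log2 scale (adjusted p = 0.0108), with 88.8, 20.3 and 120 CPM in the control and 33.9, 9.70 and 60.0 CPM in the mutant. The others were HSPA8, the cytosolic Hsp70 that delivers precursors (−1.54 ± 0.34, adjusted p = 0.0129), and STIP1, which links Hsp70 to Hsp90 (−1.26 ± 0.30, adjusted p = 0.0207). HSPA8 had 415, 37.1 and 287 CPM in the control and 71.1, 17.5 and 147 CPM in the mutant, and STIP1 had 103, 15.2 and 202 CPM against 24.7, 12.7 and 82.3 CPM, both lower in each pair. Without pairs none of the 3 was called, at −1.14 ± 0.87 for PITRM1, −1.65 ± 1.02 for HSPA8 and −1.41 ± 1.00 for STIP1. In control and mutant replicate 2 PITRM1 was at 1.8 and 0.888 times background, STIP1 at 2.45 and 2.12 and HSPA8 at 20.1 and 9.83. Of the 23 genes 9 lay far above background, HSPA8 and STIP1 among them but not PITRM1. Values of these 3 genes under other scalings or without a pair are not given here. Partners of the inner membrane translocases did not pass: AGK, a subunit of the TIM22 complex, had 0.08 ± 0.27, and ROMO1 of the TIM23 complex −0.37 ± 0.34. OXA1L, which inserts proteins from the matrix side, had −0.87 ± 0.28 (adjusted p = 0.127), and AIFM1, the anchor of CHCHD4, −0.71 ± 0.24 (adjusted p = 0.172). IMMP2L, a peptidase of the inner membrane with a long gene body, was at 0.887 to 1.20 times background in the replicate 1 and 2 libraries.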

How the data were processed

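RNA precipitated with an anti-myc antibody from transfected HEK cells was sequenced in 6 libraries, and all 6 columns of the table were used. The deposited table holds raw counts per Ensembl gene ID that the authors did not normalize. The tools named per the submitters' processing notes are featureCounts, FastQC and STAR 2.7.6a. Build, annotation, and how strand and overlapping genes were handled: not given in the sources used here. Positions, exon lengths and overlaps came from GENCODE release 29 (GRCh38), which held 58453 of 60671 IDs, and symbols from a table of gene IDs.

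The test across genes was that of edgeR 4.0.16 in R 4.3.3 (filterByExpr, TMM factors, quasi-likelihood F test, Benjamini-Hochberg adjustment over 33375 genes, threshold 0.05), without a replicate block as the main test and with the replicate number as a block beside it. Deviations from group means correlated between libraries of the same number (r = 0.41, 0.76 and 0.90), more than across numbers. The numbers were therefore taken as pairs, a choice made from these same data, and the labels do not say what a number shares. Background share also went with the number, at 85.2% and 82.6% in replicate 2 and 6.93% and 6.35% in replicate 3. Whether the correlations reflect background share or a shared experiment was not tested. DESeq2 1.42.0, limma 3.58.1, other scalings, no filter and left-out libraries or pairs were tried as alternatives, and the test was run on simulated data. Log2 CPM used a prior count of 1, and the standard error is the fold change over the square root of F. Far above background means an average over 8 times the olfactory receptor density. No label says that replicates came from different cultures, and p-values thus reflect the spread among the 6 libraries alone, possibly a technical one. All members are accounted for; full values are given for called members, for the members with the lowest and highest paired value in each complex, for called genes of the wider pathway list and for genes that overlap a called member and were called themselves. The members and the lists were chosen with earlier results of these data known.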

Additional observations from a re-analysis of the deposited data

How the results depend on the processing

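Without the replicate block, 0 genes and 0 members were called in edgeR under each scaling, without the filter, in DESeq2, in limma-voom and without any single library. With the replicate block 467 genes were called lower and 2 higher, and 3 members lower. With upper quartile factors and the block these were 302, 10 and 3, and with factors from genes far above background and the block 5 lower and 0 members. Leaving out a whole pair in the blocked fit, or a single library without it, gave 0 to 243 genes lower, 0 to 16 higher and 0 to 2 members lower; without pair 1 it was 35 lower, and without pair 3 TOMM5 was at 0.17, TIMM29 at 0.21 and CHCHD4 at 0.22. The cause was not tested. Single values under other settings were followed only for the called members and for the lowest and highest member of each complex. Among these, with factors from genes far above background and no block, TOMM5 (0.24), CHCHD4 (0.13), TIMM29 (0.45), TIMM23 (0.21), PAM16 (0.29) and PMPCB (0.15) turned positive. Of all 36 members 20 then lay below 0, against 34 with TMM factors. With those factors and the block they were 0.32, 0.24, 0.31, 0.30, 0.30 and 0.15, and SAMM50 was at 0.00. Upper quartile factors turned TIMM29 (0.05) and, with the block, TIMM23 (0.01). Over left-out libraries and pairs, values ran from −1.49 to 1.28 for TOMM5, −0.76 to 0.14 for SAMM50, −0.59 to 1.22 for MTX2, −0.87 to 0.78 for CHCHD4, −0.58 to 1.41 for TIMM9 and −2.71 to 0.85 for TIMM10. They ran from −1.55 to 0.59 for TIMM22, −0.80 to 0.28 for TIMM29, −1.11 to 1.03 for TIMM23, −0.87 to 0.61 for PAM16 and −1.12 to 0.55 for PMPCB. TOMM40L (−2.61 to −1.21), GFER (−2.25 to −0.88), PMPCA (−2.0 to −0.87), TIMM50 (−1.38 to −0.23) and HSPA9 (−1.92 to −0.34) stayed negative in these fits. The rank of TOMM20 by level moved from 1 to 5 with gene span in place of exon length, and that of TIMM23 from 3 to 31. Counts behind the members were fewest in pair 2, at 4684 and 1348 over all 36 in control and mutant, where total counts were 11067938 and 3287218 and background 85.2% and 82.6%.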

Other observations

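Counts were even more often than odd in every library. Among the 33375 tested genes, 66.0%, 65.2% and 58.3% of counts were even in control replicates 1, 2 and 3, and 73.4%, 81.5% and 55.5% in mutant replicates 1, 2 and 3. Among genes with 10 to 99 counts in a library, the even share ran from 59.4% in mutant replicate 3 to 82.7% in mutant replicate 2. Of the 36 import genes, 28 had an even count in mutant replicate 2, the 10 counts of TOMM40L and the 4 of GFER among them, and 19 in control replicate 1. The cause of this excess was not tested.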
